A study of Mus musculus with 12 samples.

Results

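Pou2f2 and 5 related POU genes, Pou2f1, Pou3f1, Pou3f2, Pou3f3 and Pou3f4, were followed by name through RNA-seq counts of mouse embryonic brain, as 6 of the 46078 genes in the deposited tables. The list was chosen from a measured value, the difference of Pou2f2 between KO and WT males, and the other 5 members were added as its class II relative and the class III factors of the nervous system. The male values of Pou2f2, and every fit that holds the male libraries, are therefore a description without a p-value for this gene. The libraries came from E15.5 brains of Nsd2 KO males, WT males, Nsd2 KO females and WT females on a C57BL/6 background, with 3 animals in each of these groups and 12 libraries in all. The KO allele, made with CRISPR/Cas9, lacks the entire coding sequence of the H3K36 methyltransferase gene Nsd2 and is carried in every tissue, and all libraries were depleted of rRNA and directional.

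POU factors bind DNA with a bipartite domain, a POU-specific domain and a POU homeodomain joined by a flexible linker, and many recognise the octamer motif. Class II holds OCT1, encoded by Pou2f1, which is made in nearly all cells and works with the SNAPc complex at small nuclear RNA promoters, and OCT2, encoded by Pou2f2, which is best known from B cells and is also made in neurons. The class III genes are intronless in mammals, are active mainly in the developing nervous system and often act redundantly, for example BRN1 and BRN2 in the production and migration of upper-layer cortical neurons.

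Each library held 40398665 to 59304196 counts, and edgeR's quasi-likelihood test covered 18671 genes in the male fit, 18709 in the female fit and 19767 in the fits of 12 libraries, Nsd2 itself left aside. Levels are CPM, counts per 1000000 after TMM scaling over the 12 libraries. A log2 fold change sets KO against WT unless another contrast is named. A gene was called at a Benjamini-Hochberg adjusted p under 0.05. Nsd2, listed as Whsc1, was at 0.905 to 2.67 CPM in the 6 KO libraries, against 348 to 410 CPM in the 6 WT libraries. The caudal gene Hoxa5 was at 13.2 to 53.8 CPM in 6 libraries (KO male 2, WT male 2, WT male 3, KO female 2, KO female 3 and WT female 3) and at most 0.870 CPM in the other 6. The mitochondrial ribosomal RNA gene mt-Rnr1, chosen after its values were seen, was at 13426 to 23445 CPM in 3 female libraries (KO female 1, KO female 2 and WT female 2) and at 1898 to 4534 CPM in the other 9. The sources name 2 versions of the rRNA depletion kit and 2 sequencers without saying which library had which. Neuron markers summed to 5673 to 6258 CPM per library, and forebrain markers to 504 to 944 CPM. The pituitary hormone genes Gh and Prl and the pituitary POU gene Pou1f1 were at 0 in every library. These 3 were named after their values were seen, and the 7 pituitary markers together summed to 0.217 to 1.93 CPM per library.

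Pou2f2 was at 34.9, 34.5 and 31.7 CPM in KO males, against 12.2, 11.7 and 10.2 CPM in WT males. All KO males lay above all WT males, and the 3 values within each genotype lay close together. In females it was at 37.2, 12.5 and 43.8 CPM in KO animals, against 59.2, 61.0 and 35.0 CPM in WT animals. KO female 2 stood with the WT males, while the remaining KO females overlapped the WT females. In bulk RNA, a change in the number of cells that express a gene and a change in its RNA per cell cannot be told apart. The raw counts behind these levels ran between 530 in KO female 2 and 3258 in WT female 1. Even the smallest of these counts had an exact Poisson 95% interval of 486 to 577, which covers counting error alone and is far narrower than the gap between the low and the high libraries.

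**Figure D1:**
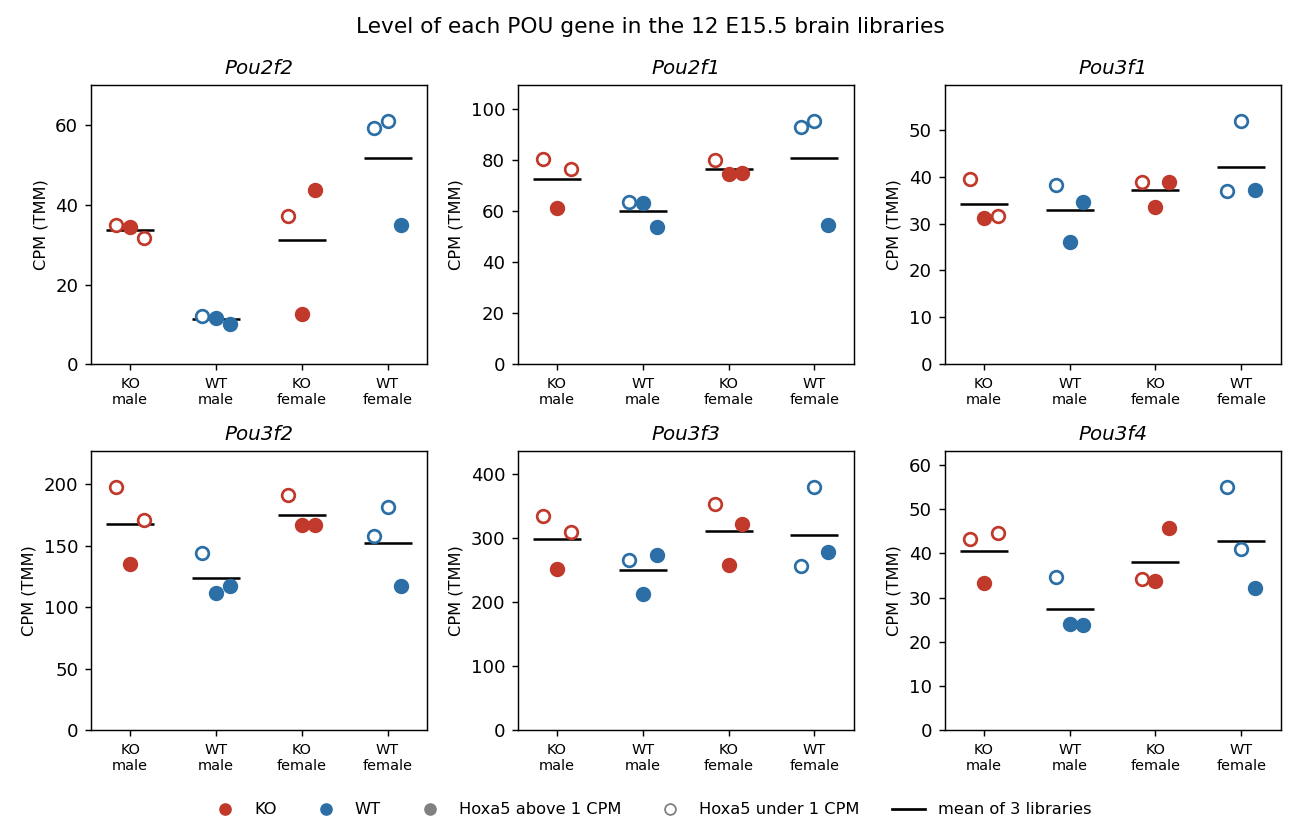
Level of each POU gene (CPM, y axis from 0) in KO and WT libraries of each sex (x axis), with 1 point per library, filled where Hoxa5 was above 1 CPM, and a bar at the mean of 3 libraries. Pou2f2 had 4 low libraries, the 3 WT males and KO female 2, and 8 high ones, whereas the other 5 genes spread without such a gap.

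The 12 libraries thus fell into a low and a high set for Pou2f2. No library lay between 12.5 CPM in KO female 2 and 31.7 CPM in KO male 3, a ratio of 2.54 over the empty interval. Of the 19768 genes tested over the 12 libraries, 943 (4.77%) had a gap between neighbouring libraries at least as wide on the log2 scale, and the 3 WT males, whose values were part of the choice of the gene, form the lower side of this one with KO female 2. Of 6707 genes with a mean level at or above that of Pou2f2, 12 including Pou2f2 had such a gap. The other 11 comprised the ribosomal RNA genes mt-Rnr1 and Rn18s-rs5, the prostaglandin D synthase gene Ptgds, Myo7a, which encodes an unconventional myosin, the mitochondrial leucyl-tRNA synthetase gene Lars2, Yam1 and 5 predicted genes, all chosen after their values were seen. Pou2f2 was alone among the 12 in dividing the libraries in this way. The division and its width were taken from Pou2f2 itself, so this rank and the next counts are a description and no test. Across all genes tested, 102 including Pou2f2 had the 3 WT males and KO female 2 as their lowest libraries and 47 had them as their highest, and of these only Pou2f2 had a gap as wide. Rab38, which encodes a small GTPase and was again chosen after its values were seen, had the next widest gap, with these libraries as its highest, 0.44 on the log2 CPM scale against 1.34 for Pou2f2, and was at most 0.970 CPM.

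In the edgeR fit of males Pou2f2 differed by 1.57 log2 units (SE 0.0937), which is the value that chose it. It was the 1 member called among 6 in that contrast, where 0.461% of all genes tested were called, and nothing is read from that count. In females, which did not choose the gene, the log2 fold change was -0.73 (SE 0.491, edgeR adjusted p = 0.776), and 0 of 6 members were called, where 0.0160% of all genes were. Without KO female 2 the female value was -0.35 (SE 0.247), and over the leave-one-out fits it ran between -1.05 and -0.35. With the mean level of the caudal Hox genes as a covariate it was -0.39 (SE 0.562). Mean levels were 33.7 ± 1.71 CPM in KO males, 11.4 ± 1.04 CPM in WT males, 31.2 ± 16.5 CPM in KO females and 51.7 ± 14.5 CPM in WT females (SD, n = 3 each). Both male groups were tight. With each gene's spread estimated from the 12 libraries together, the same male difference of 1.57 had an SE of 0.386.

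WT animals of the 2 sexes stood further apart than KO and WT males did. The mean of WT females was 4.55 times that of WT males, the mean of KO males was 2.96 times that of WT males, and the mean of KO females was 0.603 times that of WT females. KO females and KO males had nearly equal means, with a ratio of 0.925. Over both genotypes the female over male log2 fold change of Pou2f2 was 1.03 (SE 0.484), a description since it holds the male libraries, and without KO female 2 it was 1.36 (SE 0.36). Males and females were deposited as separate tables, so sex and table cannot be told apart. The KO effect in males minus that in females was 2.29 on the log2 scale (SE 0.538).

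The division of Pou2f2 levels was not that of Hoxa5. Caudal Hox genes as a list summed to 0.940 to 74.1 CPM in KO males, against 26.6 to 272 CPM in WT males. Their sums were 6.14 to 292 CPM in KO females, against 1.18 to 276 CPM in WT females. The median log2 fold change of the list was -2.56 for males and 0.95 for females. Of the 19 to 21 tested, 0 were called in each comparison of genotypes. Among all genes the called share was 0.461% for males, 0.0160% for females and 1.89% with the sexes together. Nothing is read from that count, and it does not show that these genes were balanced between genotypes. Among libraries under 1 CPM of Hoxa5, KO males were at 31.7 and 34.9 CPM and the WT male was at 12.2 CPM. Among libraries above it, the KO male was at 34.5 CPM and the WT males were at 10.2 and 11.7 CPM. The ratio of means in males was thus 2.73 and 3.14 within the low and high libraries. These values chose the gene, so a male difference within each set followed from that choice, and 1 genotype had only 1 library in each. The part of the Hox difference in the result was not tested. Among female libraries under 1 CPM of Hoxa5, the KO female was at 37.2 CPM and the WT females were at 59.2 and 61.0 CPM, a KO over WT ratio of 0.619. Above it the KO females were at 12.5 and 43.8 CPM, on either side of the WT female at 35.0 CPM, so no direction is read there. The 3 libraries with high mt-Rnr1 had Pou2f2 at 37.2, 12.5 and 61.0 CPM, a span that covers nearly the whole range of the gene, and the part of library preparation in the result was not tested.

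Pou2f2 (ENSMUSG00000008496) lies on the minus strand of chromosome 7 of GRCm38 from 25087344 to 25179726, a locus of 92.4 kb for which GENCODE M 21 annotates 10 transcripts of 5 to 15 exons. Since the counts are sums over transcripts, no promoter can be assigned from them. The RefSeq promoter held here for the gene (GRCm38.p6, chr7:25132411-25132710, minus strand, 250 bases before and 50 after an annotated start inside the locus) is shown because Pou2f2 is the member whose level divided the libraries, and it is the 1 promoter of the gene in that table. Capitals would mark the octamer ATGCAAAT or CCAAT boxes on either strand, of which it holds none.
Pou2f2 promoter: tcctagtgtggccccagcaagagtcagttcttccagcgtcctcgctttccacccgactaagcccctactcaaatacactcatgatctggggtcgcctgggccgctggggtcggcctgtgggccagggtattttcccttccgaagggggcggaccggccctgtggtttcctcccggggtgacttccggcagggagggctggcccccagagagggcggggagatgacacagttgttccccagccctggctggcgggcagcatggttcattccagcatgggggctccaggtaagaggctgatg

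None of the genes around Pou2f2 reported here had a difference of its size. Pou2f2 was chosen for its male difference, so in males this contrast of sizes largely followed from that choice. Of 9 neighbours among the nearest annotated genes on each side, 7 were tested and 0 were called in either sex or over both. Of all genes tested, 0.461% were called in males, 0.0160% in females and 1.89% over both, so nothing is read from that count. The log2 fold changes of the 7 tested neighbours were -0.25 to 0.18 in males (lowest edgeR adjusted p = 0.378). In females they were -0.26 to -0.01 (lowest edgeR adjusted p = 0.747). Zfp574, a zinc finger gene 3.85 kb away, averaged 39.8 CPM in KO males and 36.0 CPM in WT males, with all KO males above all WT males. Dedd2, which encodes a death effector domain protein and lies 20.2 kb to the other side, averaged 11.5 CPM in KO males and 10.6 CPM in WT males. Grik5, the kainate receptor subunit gene, averaged 154 CPM in KO males and 149 CPM in WT males. The other tested neighbours were the vesicle trafficking gene Rabac1, the zinc finger gene Zfp526, whose KO males also lay above all WT males (0.18 on the log2 scale), the kinase gene Gsk3a and the antisense transcript 9130221H12Rik, and the miRNA genes Mir7047 and Mir7048 had too few counts for a test. D930028M14Rik, a noncoding gene on the opposite strand inside Pou2f2, was at 4.48 to 9.10 CPM and differed by -0.41 log2 units (SE 0.179, edgeR adjusted p = 0.418) in males. Whether the counting used strand is not given in the sources used here, so reads of overlapping genes on opposite strands may be mixed.

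**Figure D2:**
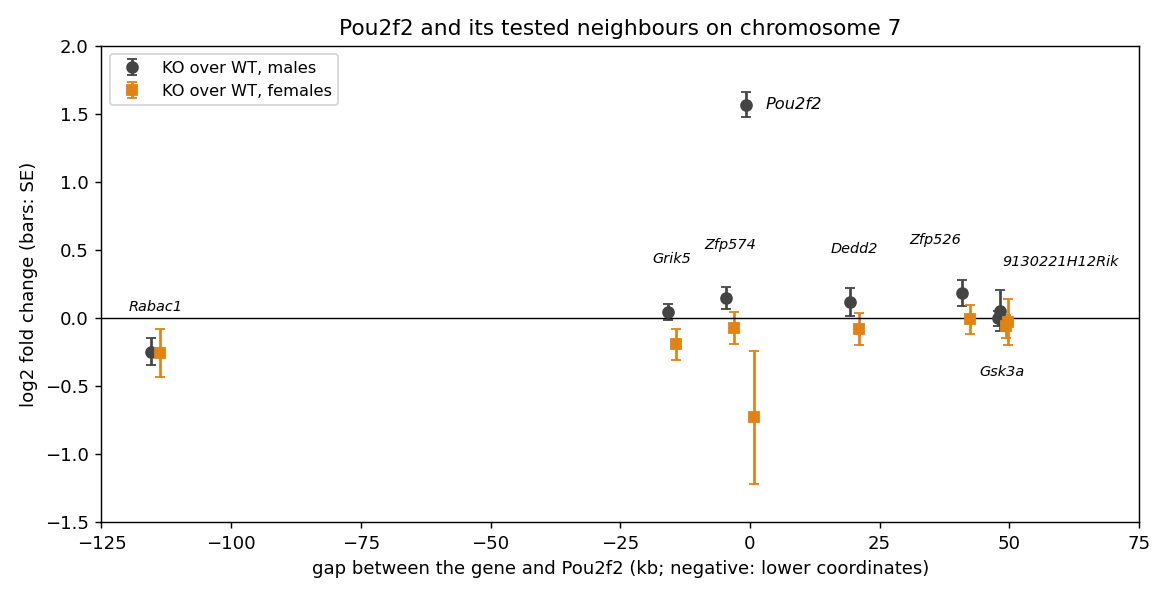
Log2 fold change, KO over WT, with its SE (y axis) of Pou2f2 and 7 tested neighbours, by the gap in kb between gene and Pou2f2 (x axis), in males (circles) and females (squares). The neighbours lie between -0.26 and 0.18, while Pou2f2 is at 1.57 in males and -0.73 in females.

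Pou2f1 (ENSMUSG00000026565, chromosome 1, 165865154 to 166002678, minus strand, 18 transcripts), the broadly expressed class II relative, varied far less. It was at 80.3, 61.3 and 76.3 CPM in KO males, against 63.4, 63.1 and 53.8 CPM in WT males. KO male 2 lay inside the WT range, so the groups overlapped. In females it was at 80.0, 74.4 and 74.7 CPM in KO animals, against 93.0, 95.1 and 54.3 CPM in WT animals. Here the KO values lay between WT female 3, the lowest, and the other WT females. The log2 fold change was 0.28 in males (SE 0.113, edgeR adjusted p = 0.397) and -0.08 in females (SE 0.201, edgeR adjusted p = 0.946). Pou2f1 overlaps the T-cell receptor gene Cd247 on the opposite strand, which was at most 0.870 CPM.

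The 4 class III genes are all single-exon genes with 1 annotated transcript. Pou3f3, which encodes BRN1, had the highest level per kb of exons (ENSMUSG00000045515, chromosome 1, 42695768 to 42703176, plus strand). It was at 334, 251 and 309 CPM in KO males, against 266, 212 and 273 CPM in WT males, and at 353, 257 and 322 CPM in KO females, against 256, 379 and 278 CPM in WT females. The genotypes overlapped in both sexes, and the highest library of all was WT female 2. Its log2 fold change was 0.26 in males (SE 0.132, edgeR adjusted p = 0.489) and 0.03 in females (SE 0.176, edgeR adjusted p = 0.977). Pantr1, a long noncoding RNA gene that starts 0.926 kb from Pou3f3 on the opposite strand, was at 22.8 to 41.1 CPM and had log2 fold changes of 0.16 in males and 0.22 in females, both without a call.

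Pou3f2, which encodes BRN2 (ENSMUSG00000095139, chromosome 4, 22482780 to 22488366, minus strand), was at 198, 135 and 171 CPM in KO males, against 144, 111 and 117 CPM in WT males. KO male 2, the KO male with Hoxa5 above 1 CPM, lay below WT male 1, the WT male under it, and the other values kept the genotypes apart. KO females were at 191, 167 and 167 CPM, against 158, 181 and 118 CPM in WT females. The log2 fold change was 0.44 in males (SE 0.158, edgeR adjusted p = 0.358), 0.20 in females (SE 0.159, edgeR adjusted p = 0.80) and 0.32 over both sexes (SE 0.118, unadjusted p = 0.0183, edgeR adjusted p = 0.247). Over both sexes 0 of 6 members were called, where 1.89% of all genes tested were. The fit over both sexes with the caudal Hox level as a covariate called 511 of 19767 genes tested. With the mean level of the caudal Hox genes as a covariate the value over both sexes was 0.31 with an adjusted p of 0.0374 from edgeR, within a range of 0.0374 to 0.578 over the alternatives other than leave-one-out fits and 0.107 to 0.462 when each library was left out in turn. Within the libraries under 1 CPM of Hoxa5 the KO over WT ratio of means was 1.28 in males and 1.13 in females, and within those above it 1.18 in males and 1.42 in females.

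Pou3f4, which encodes BRN4 and is needed for hearing, is the X-linked member (ENSMUSG00000056854, chromosome X, 110814280 to 110817207, plus strand). It was at 43.3, 33.4 and 44.6 CPM in KO males, against 34.7, 24.0 and 23.9 CPM in WT males. As for Pou3f2, KO male 2 lay just below WT male 1 and the other values kept the genotypes apart. KO females were at 34.2, 33.8 and 45.8 CPM, against 55.0, 41.0 and 32.3 CPM in WT females, with full overlap. Next to Pou2f2 it had the widest male difference among the members, 0.56 on the log2 scale (SE 0.178, unadjusted p = 0.0160, edgeR adjusted p = 0.308), and in females the value was -0.17 (SE 0.207, edgeR adjusted p = 0.874). DESeq2 called it in males (adjusted p = 0.0364), within a range of 0.0364 to 1.0 over the alternatives other than leave-one-out fits and 0.0754 to 0.844 when each library was left out in turn. That DESeq2 fit of males called 483 of 18671 genes tested. With the caudal Hox level as a covariate the male value was 0.21 for Pou3f4 and 0.17 for Pou3f2. The difference of the KO effect between the sexes was 0.73 (SE 0.302, unadjusted p = 0.0345, edgeR adjusted p = 0.910). In that test of the sexes 0 of 6 members and 0% of all genes tested were called by edgeR, 879 genes had an unadjusted p under 0.05, and DESeq2 called 5 genes. Female over male, with genotype as a covariate, Pou3f4 differed by 0.27 (SE 0.184, edgeR adjusted p = 0.325).

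Pou3f1, which encodes OCT6 and is known for its role in Schwann cell myelination (ENSMUSG00000090125, chromosome 4, 124656807 to 124660655, plus strand), was at 39.5, 31.3 and 31.5 CPM in KO males, against 38.2, 26.1 and 34.7 CPM in WT males. Its KO females were at 38.9, 33.6 and 39.0 CPM, against 37.0, 51.8 and 37.2 CPM in WT females. The groups overlapped in both sexes. The log2 fold changes of 0.05 in males (SE 0.156, edgeR adjusted p = 0.925) and -0.18 in females (SE 0.145, edgeR adjusted p = 0.809) were the nearest to 0 and the second most negative among the members in their sex.

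The promoters of 3 class III genes are shown because they share a sequence feature that the choice of genes did not use. RefSeq promoters of GRCm38.p6, 300 bases each, matched 5 of the 6 members. CCAAT boxes (CCAAT on either strand, in capitals) occurred 2 times in that of Pou3f2 (chr4:22488317-22488616, minus strand), 3 times in that of Pou3f3 (chr1:42695518-42695817, plus strand) and 3 times in that of Pou3f4 (chrX:110814129-110814428, plus strand), and in none of the 3 promoters of Pou2f1 or that of Pou2f2. Of 32851 mouse promoters of this length, 37.4% held at least 1 CCAAT box, 11.7% at least 2 and 3.37% at least 3. The octamer ATGCAAAT, on either strand, was in 1.74% of them and in none of the members.
Pou3f2 promoter: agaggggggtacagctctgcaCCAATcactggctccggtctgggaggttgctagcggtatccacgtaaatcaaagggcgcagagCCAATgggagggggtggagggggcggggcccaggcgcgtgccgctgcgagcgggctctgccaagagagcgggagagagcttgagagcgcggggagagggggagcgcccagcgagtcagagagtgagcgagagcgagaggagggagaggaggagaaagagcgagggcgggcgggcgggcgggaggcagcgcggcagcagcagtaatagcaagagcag
Pou3f3 promoter: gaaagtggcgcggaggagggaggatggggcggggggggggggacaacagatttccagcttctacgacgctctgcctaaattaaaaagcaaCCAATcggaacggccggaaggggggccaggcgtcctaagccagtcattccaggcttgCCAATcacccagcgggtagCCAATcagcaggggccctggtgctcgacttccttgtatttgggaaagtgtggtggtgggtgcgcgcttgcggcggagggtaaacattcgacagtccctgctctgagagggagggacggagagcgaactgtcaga
Pou3f4 promoter: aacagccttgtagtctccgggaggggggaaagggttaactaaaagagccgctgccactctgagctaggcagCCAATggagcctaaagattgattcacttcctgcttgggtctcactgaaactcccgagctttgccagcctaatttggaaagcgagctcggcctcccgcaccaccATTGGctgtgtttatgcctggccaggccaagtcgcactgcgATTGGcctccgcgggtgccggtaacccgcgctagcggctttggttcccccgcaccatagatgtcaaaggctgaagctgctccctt

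**Figure D3:**
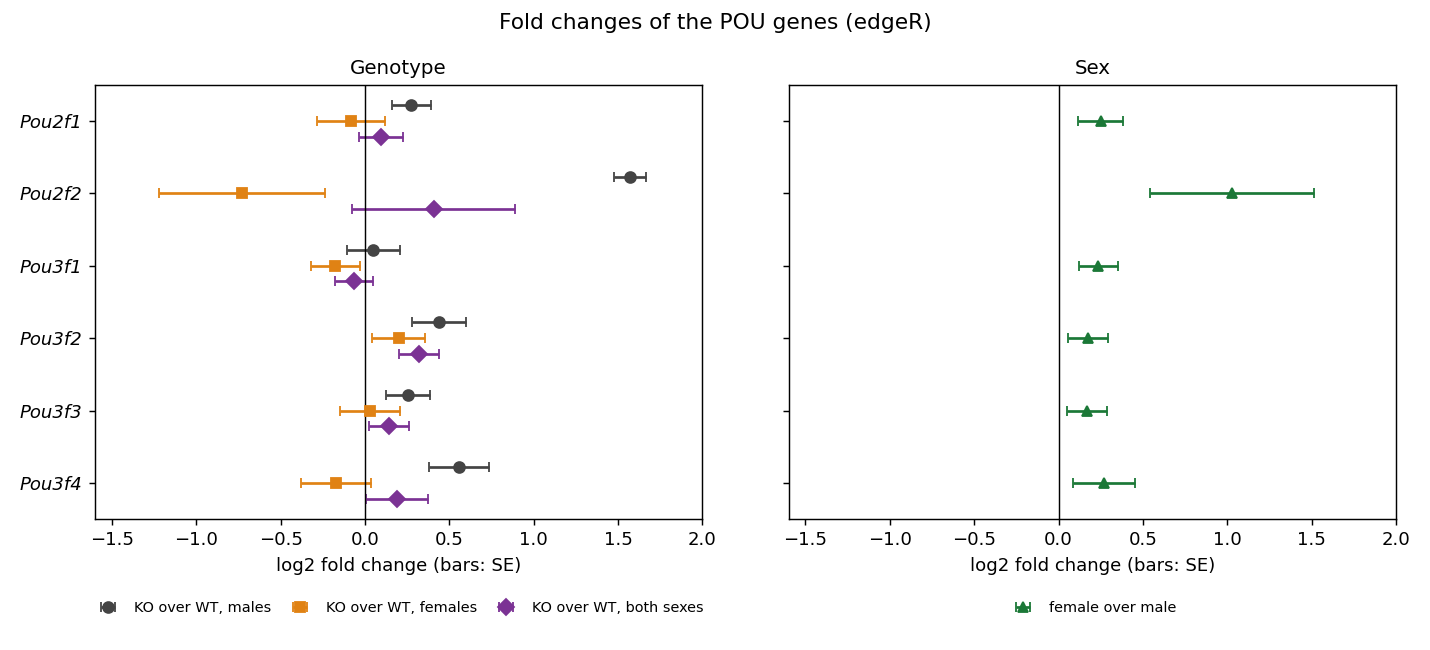
Log2 fold changes (x axis) with their SE for the 6 POU genes (y axis), on the left KO over WT in males, females and both sexes, on the right female over male. Pou2f2 is at 1.57 in males and -0.73 in females, the other 5 lie between 0.05 and 0.56 in males and between -0.18 and 0.20 in females, and all 6 lie above 0 for female over male.

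Set side by side, the 5 members other than Pou2f2 had log2 fold changes above 0 in males in 5 of 5 cases, with a median of 0.28, whereas 48.8% of all genes lay above 0 with a median of -0.01. None was called by edgeR, and 3 of 5 had an unadjusted p under 0.05, against 11.9% of all genes. The profiles of these 5 lay close to each other, so they are not independent and nothing is read from these counts. Over the alternatives other than leave-one-out fits, the lowest male values were -0.10 for Pou3f1, 0.0876 for Pou3f3 and 0.105 for Pou2f1. For Pou3f2 and Pou3f4 they were 0.17 and 0.21. In females 2 of 5 lay above 0 and the median was -0.08, against 51.6% and 0.01 for all genes. With genotype as a covariate, the female over male values of the 6 members were 0.17 to 1.03 on the log2 scale, and 0 of 6 were called, where 23.7% of all genes tested were. Within KO animals alone the female over male ratio of means was 0.925 for Pou2f2 and 0.938 for Pou3f4, below 1. In the female over male fit of both genotypes, the adjusted p-values of the 5 members other than Pou2f2 were 0.16 to 0.334 in edgeR. Pou2f1 was called there without WT female 3 (log2 fold change 0.32, edgeR adjusted p = 0.0460), in a fit that called 5619 of 20222 genes tested. It was also called with the caudal Hox level as a covariate (0.24, edgeR adjusted p = 0.0478), where 5329 of 19767 genes were. Nothing is read from these calls. Its adjusted p ran over 0.0460 to 0.382 in the leave-one-out fits and 0.0478 to 0.244 in the other alternatives.

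Centred on their own means, the profiles of the members other than Pou2f2 lay close to each other. The root mean square difference of centred log2 CPM over the 12 libraries was 0.142 between Pou3f1 and Pou3f3, 0.16 between Pou2f1 and Pou3f2 and 0.18 between Pou3f2 and Pou3f3, and at most 0.313 between any pair without Pou2f2. From Pou2f2 to the others it was 0.672 to 0.797. The standard deviation of log2 CPM over the libraries was 0.94 for Pou2f2 and 0.24 to 0.36 for the others, with 0.24 for the median gene tested.

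**Figure D4:**
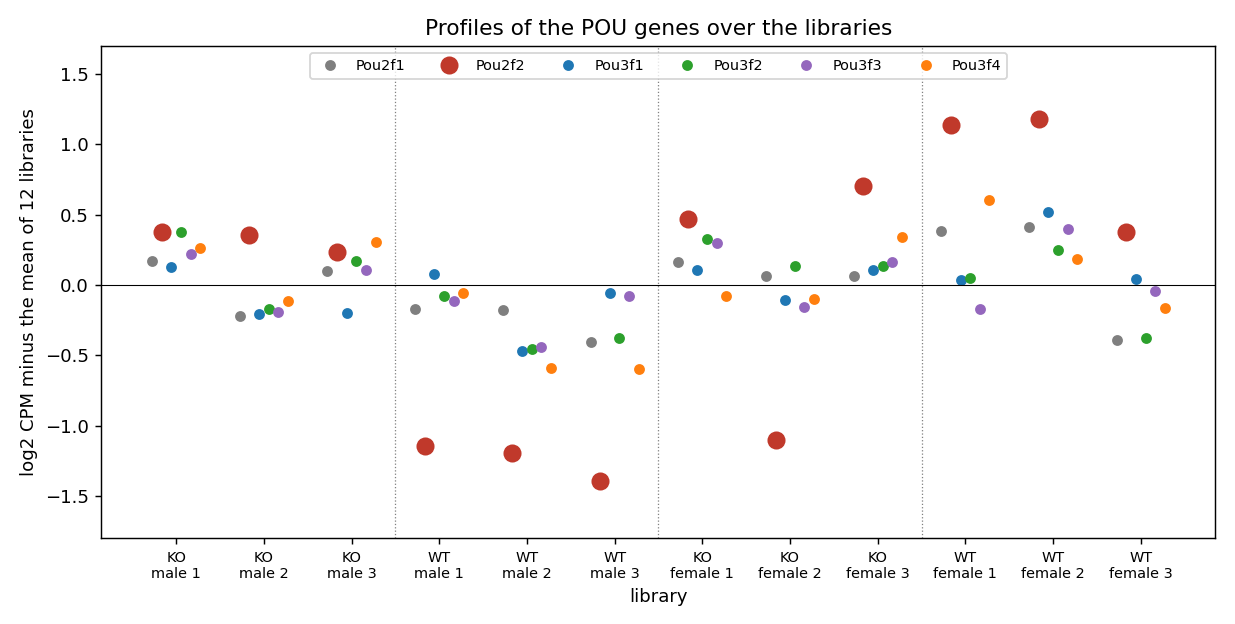
Log2 CPM of each POU gene minus its mean over the 12 libraries (y axis) in each library (x axis, grouped by genotype and sex). Pou2f2 (large points) reaches below -1 in the 3 WT males and KO female 2 and above 1 in WT females 1 and 2, while the other genes lie between -0.595 and 0.605, both ends being Pou3f4.

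Among all 19768 genes tested, those with the profile nearest to that of Pou2f2 were Tmem253, at a distance of 0.486, RP24-572L22.2, Fam83e, Lime1 and RP24-132L16.12, at 0.538 to 0.589. They lie on chromosomes 14, 5, 7, 2 and 5, none was above 2.01 CPM in any library, and each was thus counted with much larger relative error than Pou2f2. The other members had much nearer counterparts. These were Spen for Pou2f1 (0.0648), which encodes a transcriptional corepressor, the replication clamp unloader gene Atad5 for Pou3f3 (0.0756), Ninl for Pou3f1 (0.101), which encodes a ninein-like centrosomal protein, Mbtd1 for Pou3f2 (0.112), which encodes a chromatin reader, and the antisense gene Gm16401 for Pou3f4 (0.127).

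Per kb of exons, the 4 class III genes were above both class II genes in every library. Pou3f3 was highest at 28.6 to 51.1 CPM per kb, followed by Pou3f2 at 19.9 to 35.4 CPM per kb, in all 12 libraries. Pou3f4 (8.17 to 18.8 CPM per kb) lay above Pou3f1 (6.78 to 13.5 CPM per kb) in 11 of 12 libraries, and their ranges overlapped widely. Pou2f1 was at 3.24 to 5.73 CPM per kb and Pou2f2 at 1.24 to 7.40 CPM per kb. Pou2f1 was above Pou2f2 in 7 libraries and below it in 5. For this pair the union of all annotated exons was used as length, 16.6 kb and 8.24 kb, and transcripts that lack part of these exons would have higher levels per kb.

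**Figure D5:**
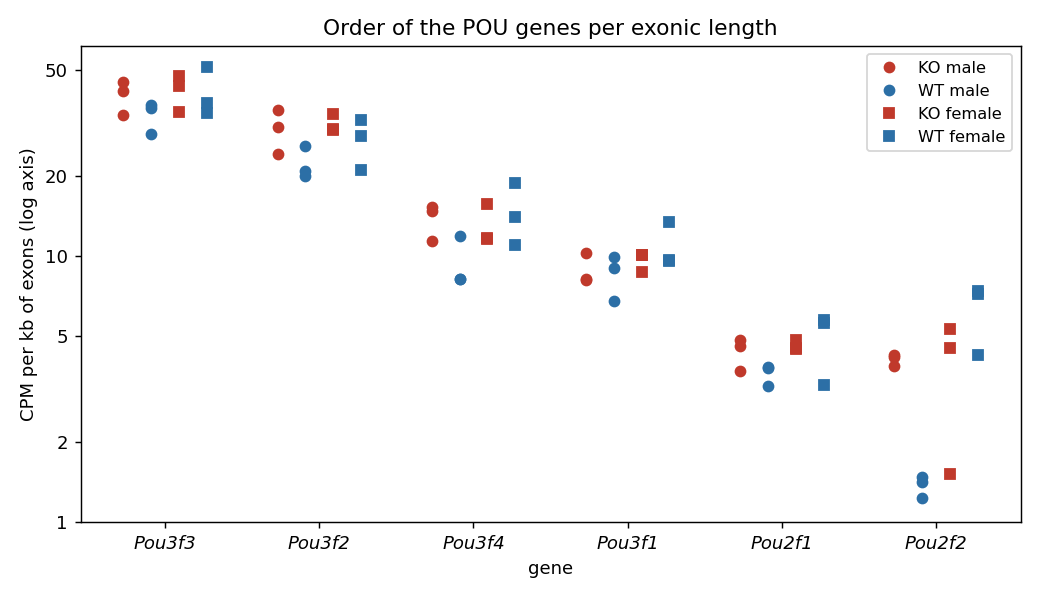
Level per kb of exons (y axis, log axis, CPM per kb) of each POU gene (x axis) in the 12 libraries, by genotype (colour) and sex (shape). Pou3f3 and Pou3f2 lead at 19.9 to 51.1 CPM per kb, and Pou2f2 has the widest range, 1.24 to 7.40 CPM per kb.

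Other genes of the family and its partners were read against the 0.461% of all genes called in males and the 0.0160% in females, at which lists of this size would rarely hold a call. Of 9 other POU genes, 5 were tested in males and 6 in females, and 0 were called in either direction. Their median log2 fold change was 0.43 in males and -0.36 in females. Pou6f1 was at 95.4 to 137 CPM, and Pou4f1, a sensory and habenular neuron factor, at 14.4 to 67.2 CPM with log2 fold changes of 0.43 (SE 0.292) in males and -0.42 (SE 0.530) in females. Their summed level was 178 to 205 CPM in KO males, against 147 to 168 CPM in WT males, and 171 to 216 CPM in KO females, against 172 to 251 CPM in WT females. Of 8 octamer coactivators and snRNA promoter partners in the tables, 7 were tested and 0 were called in either sex. The B-cell coactivator gene Pou2af1 was at most 0.251 CPM, the SNAPc subunit gene Snapc3 had log2 fold changes of 0.16 (SE 0.117) in males and 0.02 (SE 0.139) in females, and the TATA-binding protein gene Tbp had 0.03 (SE 0.0915) in males and 0.06 (SE 0.0915) in females.

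Partners and described targets of the class III factors are read against the same shares. Of 10 SOX and bHLH partner genes, 0 were called, and their summed level was 4345 to 5323 CPM in KO males, against 3528 to 4297 CPM in WT males, and 4102 to 5310 CPM in KO females, against 4180 to 5487 CPM in WT females. Sox11, at 1765 to 3002 CPM, differed by 0.40 log2 units in males (SE 0.126, edgeR adjusted p = 0.296) and -0.01 in females (SE 0.193). Sox4, its close relative, had 0.26 (SE 0.10) in males and -0.02 (SE 0.131) in females. Of 11 neural genes described as class III targets, 0 were called, with Nes, which encodes the intermediate filament of neural progenitors, at 0.26 (SE 0.101) in males and -0.05 (SE 0.116) in females, and Cdk5r1, which encodes an activator of CDK5, at 0.15 (SE 0.0633) and -0.07 (SE 0.10). Of 8 upper-layer cortical genes, 0 were called, with Cux1 at 0.15 (SE 0.0793) and -0.13 (SE 0.153) and Lhx2 at 0.43 (SE 0.182) and 0.13 (SE 0.164). For none of these lists was any member called over both sexes.

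Markers of cells that make Pou2f2 were read beside it, and their counts of calls against the same shares of all genes. Pou2f2 acts downstream of Onecut factors in mouse spinal interneurons, and of 12 tested genes of that setting 0 were called. Their summed level was 398 to 413 CPM in KO males, against 318 to 396 CPM in WT males, and 374 to 407 CPM in KO females, against 351 to 589 CPM in WT females, with medians of 0.12 in males and -0.31 in females on the log2 fold change scale. Foxp2, which encodes a forkhead factor, had a log2 fold change of 0.26 (SE 0.0687) in males and -0.36 (SE 0.223) in females. Bhlhe22, which encodes a bHLH factor, was at 0.15 (SE 0.127) in males and 0.26 (SE 0.186) in females. The medians of this list had the sign of Pou2f2 in both sexes, and WT female 1 had the highest sum. Other lists had the same signs, such as the B-cell genes (0.08 in males and -0.24 in females) and the neuron markers (0.02 and -0.10). The sum did not follow Pou2f2 in all libraries, with 374 CPM in KO female 2, low for Pou2f2, and 374 CPM in KO female 1. The part of such cells in the result was not tested. Of 12 B-cell genes, 7 stayed under 1 CPM in every library. Among them Ms4a1 and Blk were at 0 throughout and Cd79a was at most 0.201 CPM. Others were higher, with Ighm at 0.502 to 1.95 CPM, Rag1 at 0.626 to 1.09 CPM and Cd36 at 0.377 to 5.97 CPM. All of these were named after their values were seen. The sum of 12 B-cell genes, 107 to 118 CPM in KO males, 110 to 115 CPM in WT males, 112 to 144 CPM in KO females and 115 to 193 CPM in WT females, came mainly from Pax5 (16.6 to 63.4 CPM) and Ebf1 (67.9 to 125 CPM), which the embryonic brain also makes. Leukocyte and microglia markers summed to 45.8 to 56.9 CPM in KO males, 49.2 to 71.6 CPM in WT males, 40.6 to 49.96 CPM in KO females and 40.4 to 54.8 CPM in WT females, with 0 of 9 called. Markers of radial glia, hypothalamus, erythroid cells, endothelium, meninges, eye, pituitary and sensory ganglia also held 0 called genes in either sex.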

How the data were processed

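Brains of 12 E15.5 mice were sequenced, 3 of each genotype and sex. Raw counts per gene were deposited by the authors in 2 tables, 1 per sex. By the study's methods and the submitters' processing notes, reads were shortened with FASTX-toolkit, trimmed with cutadapt 2.6, aligned to mm10 with HISAT2 2.1.0 and assigned to Ensembl transcripts with StringTie 2.0.6, whose prepDE script derived the counts from coverage, so they approximate read counts. The strand setting and filters are not given in the sources used here.

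The members and lists were chosen with earlier results of these data known. Tests used edgeR 4.0.16 in R 4.3.3 with TMM scaling, filterByExpr (min.count 10, min.total.count 15), robust quasi-likelihood fits and Benjamini-Hochberg adjustment over all genes tested (threshold 0.05). Males and females were fitted apart, both sexes with sex as covariate, the difference of the KO effects as an interaction, and female over male with genotype as covariate. The SE is the absolute log2 fold change over the square root of F. Log2 CPM used a prior count of 2. Levels per kb used the exonic length of GENCODE M 21. Likeness of profiles was the root mean square difference of centred log2 CPM over 12 libraries. Named genes were the members, Nsd2, the 5 genes most like Pou2f2 and the 1 most like each other member, the 5 nearest genes on each side of Pou2f2 (1 of them, and 1 list member, not reported here), and up to 3 called or the 2 most abundant members of each list; other genes are said to be chosen after their values were seen. Promoters came from RefSeq, on GRCm38.p6.

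Libraries held 40398665 to 59304196 counts. Poisson intervals cover counting error only, and PCR copies are not independent. Replicates are separate animals. Alternatives were RLE scaling, DESeq2 1.42.0, no filter, more than 1 CPM in at least 3 libraries, the spread over all 12 libraries, a replicate block, the caudal Hox level as covariate, libraries under 1 CPM of Hoxa5, and leaving out each library. Scripts were tested on simulated data. Figures used matplotlib 3.10.9.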

Additional observations from a re-analysis of the deposited data

Results flagged for a closer look

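For Pou2f2 all 3 KO males lay above the mean of the WT males and all 3 KO females below the mean of the WT females, although KO and WT females overlapped and edgeR did not call the female difference. The KO effect in males minus that in females was 2.29 on the log2 scale (SE 0.538), a description, since the male libraries chose the gene. Pou2f1 had the same arrangement of its KO libraries around the WT means, with a difference of 0.35 (SE 0.253) that edgeR did not call (adjusted p = 0.910). No outlier test was run on groups of 3 libraries, but each library was left out in turn. In females these fits gave Pou2f2 values of -1.05 to -0.35, the latter without KO female 2.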

How the results depend on the processing

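Of the log2 fold changes of members under the alternatives, 479 kept their direction and their side of the threshold, 18 changed sign, 6 became called and 1 lost its call. The male value of Pou2f2 was 1.45 to 1.57, and 1.49 to 1.62 in leave-one-out fits, which describes the values that chose the gene and is no sign of stability. The count of members called in males, Pou2f2 included, was 2 with DESeq2, 0 with the spread over 12 libraries and 2 with the replicate block, against 1. With the caudal Hox level as covariate it was 1 over both sexes and 1 for female over male, against 0. Leaving out each library gave 0 to 1 for female over male. The 1 without KO female 2 is Pou2f2 at 1.36, not read as a test, and the 1 without WT female 3 is Pou2f1 at 0.32. For female over male, 5329 of 19767 genes tested were called with the covariate and 5619 of 20222 without WT female 3.

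Signs turned with the Hox covariate for Pou3f1 in males (-0.10), Pou2f1 in females (0.19) and, for the difference between the sexes, Pou2f1 (-0.12), Pou3f1 (-0.0171), Pou3f2 (-0.22) and Pou3f3 (-0.0615). In libraries under 1 CPM of Hoxa5 they turned for Pou3f1 in males (-0.10) and Pou3f4 over both sexes (-0.0646). Leave-one-out ranges that crossed 0 were -0.0950 to 0.17 for Pou3f1 in males, in females -0.31 to 0.0497 for Pou2f1, -0.26 to 0.00262 for Pou3f1, -0.0802 to 0.22 for Pou3f3 and -0.35 to 0.0525 for Pou3f4, and over both sexes -0.13 to 0.0297 for Pou3f1. The causes were not tested.

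Same-numbered KO and WT libraries correlated at -0.0441 to 0.185 in males and -0.0529 to 0.195 in females, with 1 of 3 above 0.1 in each sex. The numbers were therefore not taken as pairs in the main fits, but correlations this weak cannot show that the animals were unpaired. With the replicate block Pou3f2 in males was 0.43 (edgeR adjusted p = 0.0317, over alternatives 0.0317 to 1.0 and over leave-one-out fits 0.122 to 0.859).

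Genes called by edgeR numbered 86 in males, against 483 with DESeq2, 289 with the block, 17 with the Hox covariate and 18 in libraries under 1 CPM of Hoxa5. In females 3 were called, against 179 with DESeq2 and 37 with the spread over 12 libraries, 6 without a filter or under 1 CPM of Hoxa5 and 0 with the block or the covariate. Over both sexes it was 374, against 805 with DESeq2 and 37 under 1 CPM of Hoxa5, and for female over male 4692, against 2009 under 1 CPM of Hoxa5. The fits under 1 CPM of Hoxa5 hold 1 WT male and 1 KO female, each assumed to vary like the other group of its sex. Leaving out each library gave 21 to 113 in males, 0 to 38 in females, 200 to 383 over both sexes, 0 to 22 for the difference between the sexes and 3588 to 5619 for female over male. With 3 animals a group, missing the threshold does not show equal levels.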
